A study of Rattus norvegicus with 2 samples.

Results

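Aminoacyl-tRNA synthetases are the enzymes that load each tRNA with its amino acid. Their genes were taken by symbol from the array's probe annotation: a letter of the amino acid code followed by ars with or without a final 1 or 2, together with Eprs, Farsa, Farsb and Tars3. The rule found 32 of the 15037 named genes, each with 1 probe set. They comprised 19 cytosolic genes and 13 mitochondrial genes, whose symbols end in 2. Synthetase genes with no named probe set, such as Iars2, Lars2, Mars2 and Tars3, were not analysed here.

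RNA was measured by whole-transcript oligonucleotide array in cultured epidermal keratinocytes from newborn rats. The siTet2/3+VC culture was transfected with siRNAs against Tet2 and Tet3 at 1 µM each and then given vitamin C, and the NC+VC culture was the control, also given vitamin C. In both, vitamin C was added 24 h after transfection and left for 12 h, in medium with 10% fetal bovine serum and 0.4 µg/mL hydrocortisone. The labels describe the control as non-treated and do not say whether it received another siRNA. TET enzymes oxidise methylated cytosines, a reaction that vitamin C enhances, so the arrays compare cells with and without the siRNAs under vitamin C. Tet2 and Tet3 had no named probe set, and the knockdown was not analysed here. Each group had 1 array, so there is no replicate error and no test, and precision is limited by the number of arrays. "Higher" and "lower" describe these arrays only.

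A synthetase first activates its amino acid with ATP and then joins it to the matching tRNA, and the charged tRNA is carried to the ribosome by an elongation factor. The enzymes fall into class I and class II, which have unrelated catalytic folds. Cytosol and mitochondria mostly use enzymes from separate genes, although Gars1 and Kars1 each supply both compartments. In the cytosol several synthetases are held together in the multi-synthetase complex by scaffold proteins. When amino acids run short, uncharged tRNA activates the kinase GCN2, which leads to translation of the transcription factor ATF4, and many cytosolic synthetase genes are known ATF4 targets.

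Signals are log2 units as deposited, and differences are siTet2/3+VC minus NC+VC. The values run up to 19.93, and whether they carry a transformation beyond RMA is not given, so each fold assumes a plain log2 scale. A background floor of 5.04 log2 units was set from 1206 olfactory, vomeronasal, taste and trace amine receptor genes. Most of these are used in sense organs, although human keratinocytes are known to express some olfactory receptors. A total of 8103 genes passed it on at least 1 array, with a median difference of -0.05. Keratinocyte markers on the array, 4 in number, read 12.75 to 18.70 log2 units in the siTet2/3+VC culture and 13.15 to 18.54 in the NC+VC culture. All 6 fibroblast markers and all 3 melanocyte markers on the array lay below the floor in both cultures. Of 4 endothelial markers only the receptor gene Tek passed it, with 9.25 in the siTet2/3+VC culture and 9.66 in the NC+VC culture. Of 5 immune markers only Cd68 did, with 5.24 in the siTet2/3+VC culture and 5.52 in the NC+VC culture.

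The synthetase genes as a whole differed little between the cultures. All 19 cytosolic genes and 9 of the 13 mitochondrial genes passed the floor. Of these 28, 3 were at least 1.5-fold lower in the siTet2/3+VC culture (Farsa, Yars1 and Cars1), 1 was at least 1.5-fold higher (Rars2) and 24 were neither. Among all genes that passed the floor, 13.2% lay past 1.5-fold on the lower side and 8.63% on the higher side, so the counts of synthetases lie near or below what those shares give. The median difference of the 28 was -0.09, against -0.05 for all genes. Differences ran from -0.99 for Farsa to 0.70 for Rars2, and no synthetase reached 2-fold. In bulk RNA, fewer cells that express a gene and less of its RNA per cell cannot be told apart.

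**Figure D1:**
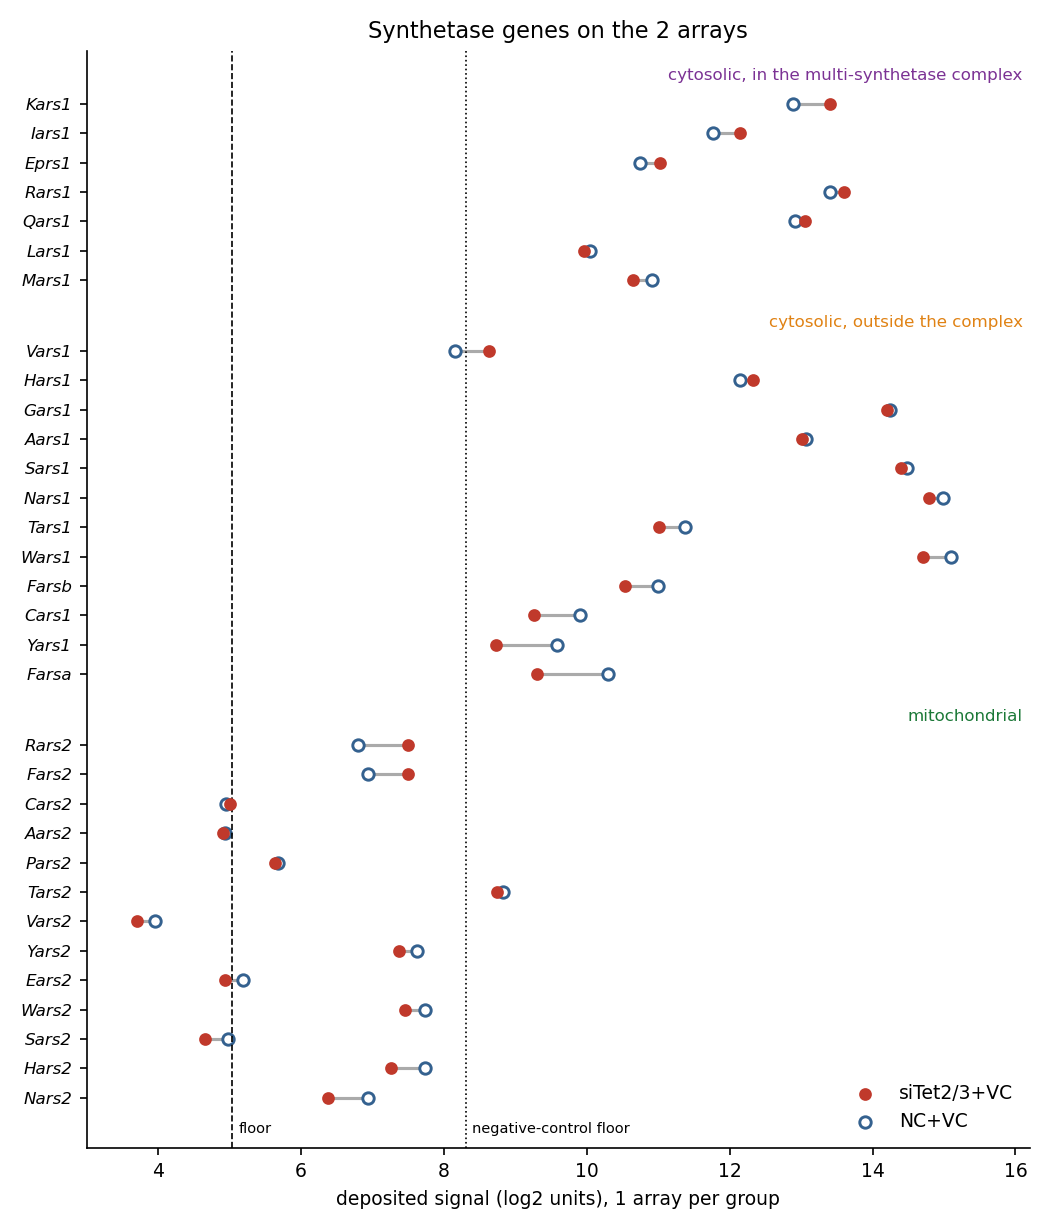
Deposited log2 signal of each of the 32 synthetase genes in the siTet2/3+VC culture (filled red) and the NC+VC culture (open blue), 1 array each, joined by a grey line and sorted by difference within each group. The dashed line is the floor of 5.04 and the dotted line an alternative floor of 8.31 from negative-control probe sets; the 19 cytosolic genes pass both on at least 1 array, and of the mitochondrial genes only Tars2 passes the dotted line.

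The medians of the multi-synthetase complex members and of the other cytosolic synthetases lay on either side of the median of all genes. Of the 7 synthetases of the complex measured here, 5 had a positive difference and 0 passed 1.5-fold in either direction, with a median of 0.20. Kars1, the lysyl enzyme, read 13.40 log2 units in the siTet2/3+VC culture and 12.88 in the NC+VC culture, a 1.43-fold higher signal. Iars1, the isoleucyl enzyme, read 12.15 in the siTet2/3+VC culture and 11.76 in the NC+VC culture, 1.30-fold higher. Eprs1, a single protein that charges both glutamate and proline tRNAs, read 11.03 in the siTet2/3+VC culture and 10.75 in the NC+VC culture. For Rars1, the arginyl enzyme, the difference was 0.20, and for Qars1, the glutaminyl enzyme, 0.15. The exceptions were Mars1, which charges methionine tRNAs including the initiator, with 10.64 in the siTet2/3+VC culture and 10.91 in the NC+VC culture, and Lars1, which in human cells also serves as a leucine sensor for mTORC1, with 9.96 in the siTet2/3+VC culture and 10.05 in the NC+VC culture.

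Of the 12 cytosolic synthetases outside the complex, 10 had a negative difference, 3 passed 1.5-fold lower and 0 higher, with a median of -0.28. In the cytosolic members' range of mean signal (8.40 to 14.90 log2 units) 10.6% of genes lay past 1.5-fold on the lower side and 5.63% on the higher side. The gap between the medians of the complex members and the others was 0.48. It was 0.38 without the gene of largest difference in each group and 0.54 without Gars1 and Kars1. Across all genes above the floor 44.6% had a positive difference, against 71.4% of the complex members and 16.7% of the other cytosolic genes. The gap was not tested, and single genes in this signal range had a robust SD of 0.40.

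Both subunits of the cytosolic phenylalanyl enzyme, which works as a tetramer of alpha and beta chains, were lower. Farsa, the catalytic alpha chain, read 9.30 log2 units in the siTet2/3+VC culture and 10.29 in the NC+VC culture, 1.99-fold lower and the largest difference of any synthetase here. Farsb, the beta chain that holds the editing part, read 10.53 in the siTet2/3+VC culture and 10.99 in the NC+VC culture, 1.37-fold lower and short of the 1.5-fold limit. Yars1, the tyrosyl enzyme, read 8.73 in the siTet2/3+VC culture and 9.58 in the NC+VC culture, 1.80-fold lower. Cars1, the cysteinyl enzyme, read 9.26 in the siTet2/3+VC culture and 9.90 in the NC+VC culture, 1.56-fold lower. The call of Cars1 depended on the scaling: with differences centred on the median of all genes it was -0.58, just inside the limit.

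The remaining cytosolic genes outside the complex differed by less than 1.5-fold. Wars1, the tryptophanyl enzyme and a known interferon-induced gene, read 14.71 log2 units in the siTet2/3+VC culture and 15.10 in the NC+VC culture. Tars1, the threonyl enzyme, had a difference of -0.36 and Nars1, the asparaginyl enzyme, one of -0.21. The seryl, alanyl and glycyl enzyme genes Sars1, Aars1 and Gars1 lay within 0.08 of 0, with differences of -0.08, -0.06 and -0.04. Only Hars1 and Vars1 had positive values in this group, joined after centring by Gars1 at 0.01. Hars1, the histidyl enzyme, read 12.32 in the siTet2/3+VC culture and 12.14 in the NC+VC culture. Vars1, the valyl enzyme, which sits in a complex with elongation factor subunits, read 8.63 in the siTet2/3+VC culture and 8.16 in the NC+VC culture, 1.39-fold higher. By structural class, the 4 class I genes outside the complex had a median of -0.51 and the 8 class II genes one of -0.14. Over all cytosolic genes, with Eprs1, which holds both classes, left out, the medians were -0.09 for 9 class I genes and -0.08 for 9 class II genes. These gaps were not tested.

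**Figure D2:**
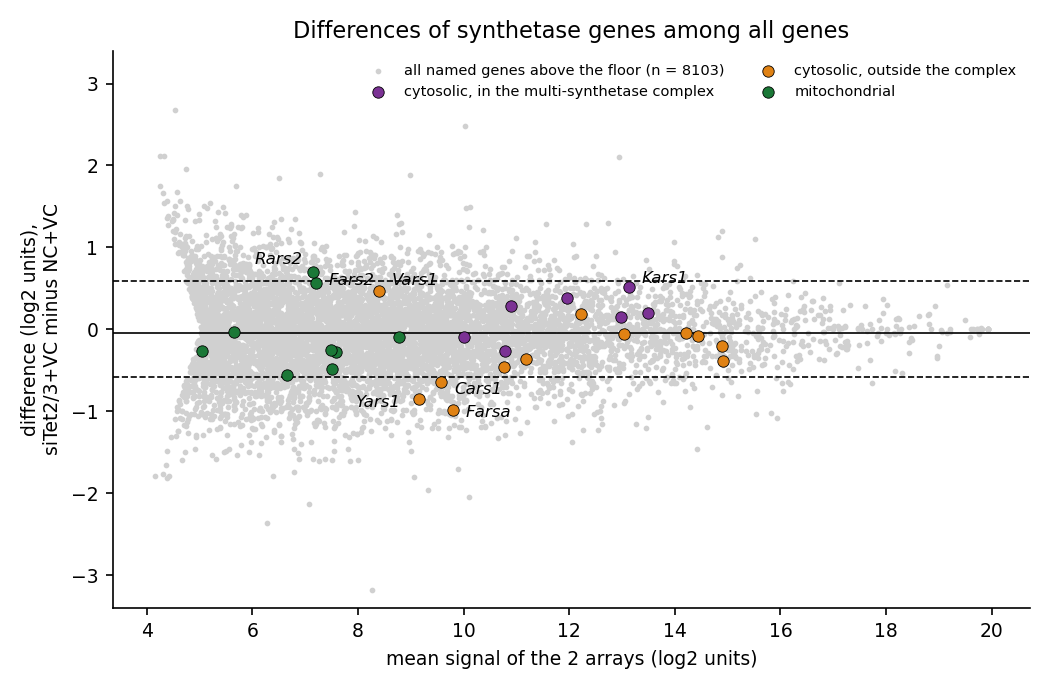
Difference (siTet2/3+VC minus NC+VC, log2 units) against the mean signal of the arrays for 8103 genes above the floor (grey) and the 28 synthetases among them, coloured by group. The solid line is the median of all genes (-0.05) and the dashed lines mark 1.5-fold; Farsa, Yars1, Cars1 and Rars2 lie outside the dashed lines, while the 7 complex members lie between them.

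The mitochondrial synthetases read closer to background. Sars2, Aars2, Cars2 and Vars2, the seryl, alanyl, cysteinyl and valyl enzymes, were below the floor in both cultures, and no fold is given for them. Of the 9 that passed it, 7 had a negative difference, 0 were at least 1.5-fold lower and 1 was at least 1.5-fold higher, with a median of -0.25; after centring Pars2 became positive, at 0.02. In their range of mean signal (5.05 to 8.78) 15.0% of genes that passed the floor lay past 1.5-fold on the lower side and 9.42% on the higher side, and the robust SD of single genes was 0.49. Only Tars2, the threonyl enzyme, passed the stricter floor of 8.31 from negative-control probe sets, with 8.74 in the siTet2/3+VC culture and 8.83 in the NC+VC culture.

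Rars2, the mitochondrial arginyl enzyme, read 7.49 log2 units in the siTet2/3+VC culture and 6.79 in the NC+VC culture, 1.62-fold higher. Fars2, the phenylalanyl enzyme, which in mitochondria is a single chain, read 7.50 in the siTet2/3+VC culture and 6.93 in the NC+VC culture, 1.48-fold higher and just inside the limit. It passed the limit after centring, with a difference of 0.62. Nars2, the asparaginyl enzyme, read 6.38 in the siTet2/3+VC culture and 6.94 in the NC+VC culture, 1.47-fold lower. Fars2 and Nars2 were thus the synthetases just inside the limit, and Cars1 the one just outside it. Hars2, the histidyl enzyme, had a difference of -0.48, while the tryptophanyl and tyrosyl enzyme genes Wars2 and Yars2 had -0.28 and -0.25. Pars2, the prolyl enzyme, differed by -0.03. Ears2, the glutamyl enzyme, read 4.93 in the siTet2/3+VC culture, below the floor, and 5.18 in the NC+VC culture.

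Set side by side, the cytosolic median was -0.08 and the mitochondrial median -0.25, a gap of 0.17. The gap turned to -0.04 with means in place of medians, so no direction between the compartments is given. Both forms of the enzyme were on the array for 13 amino acids, and for 9 of these every gene passed the floor. In 5 of the 9 the cytosolic form had the lower difference and in 4 the higher, with a median of -0.11 for cytosolic minus mitochondrial. Without phenylalanine, the amino acid of largest gap, this median was 0.10. The gap for phenylalanine was -1.29, with a mean of -0.73 for Farsa and Farsb against 0.57 for Fars2. Tyrosine followed with -0.60 and arginine with -0.50. In the other direction histidine had 0.67, glutamate 0.54 and asparagine 0.35. The glutamate gap takes the measured difference of Ears2, which passed the floor in the NC+VC culture only, and would be smaller with its bound.

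**Figure D3:**
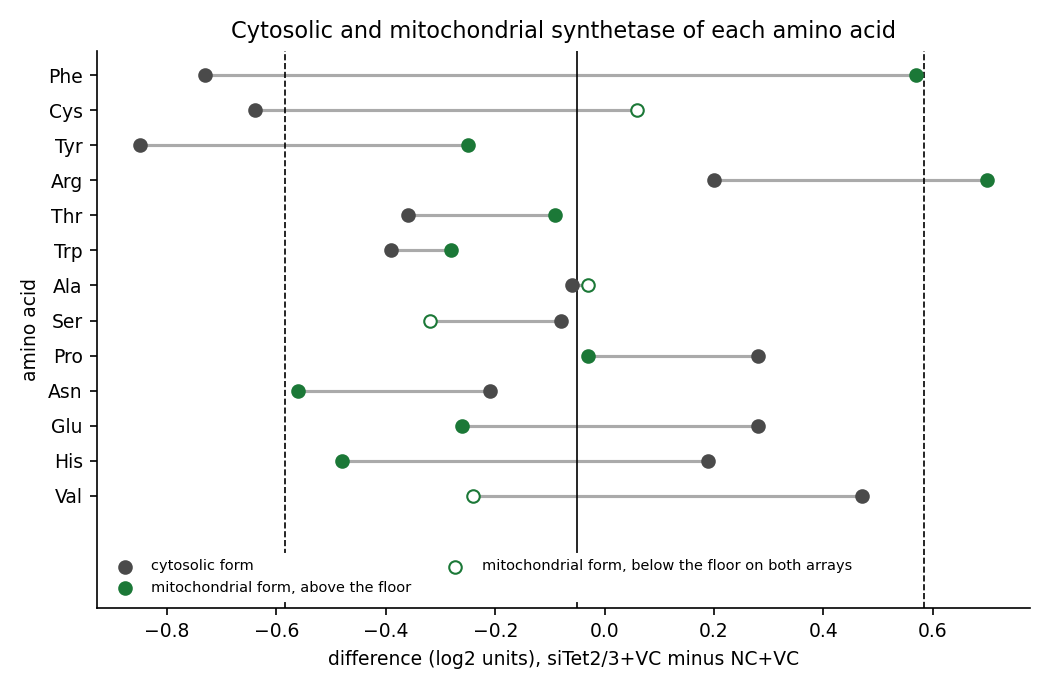
Difference (siTet2/3+VC minus NC+VC, log2 units) of the cytosolic form (dark) and the mitochondrial form (green, open where below the floor in both cultures) of the synthetase for 13 amino acids, with the mean of Farsa and Farsb for cytosolic phenylalanine and Eprs1 for both glutamate and proline. The solid line is the median of all genes and the dashed lines mark 1.5-fold; for the 9 amino acids with every gene above the floor the gaps run from -1.29 for phenylalanine to 0.67 for histidine and point both ways.

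Histidine is shown with its sequence because its 2 genes lie head to head. The annotated starts of Hars1 (minus strand) and Hars2 (plus strand) on chromosome 18 are 144 bases apart in the RefSeq windows of build GRCr8, which run from 250 bases before to 50 bases after each start. The windows share 243 bases, shown in capitals, and no other pair of synthetase windows overlaps. These genes had differences of opposite sign, 0.19 for Hars1 and -0.48 for Hars2, both within 1.5-fold.
Hars2 promoter, chr18:28672606-28672905, plus strand: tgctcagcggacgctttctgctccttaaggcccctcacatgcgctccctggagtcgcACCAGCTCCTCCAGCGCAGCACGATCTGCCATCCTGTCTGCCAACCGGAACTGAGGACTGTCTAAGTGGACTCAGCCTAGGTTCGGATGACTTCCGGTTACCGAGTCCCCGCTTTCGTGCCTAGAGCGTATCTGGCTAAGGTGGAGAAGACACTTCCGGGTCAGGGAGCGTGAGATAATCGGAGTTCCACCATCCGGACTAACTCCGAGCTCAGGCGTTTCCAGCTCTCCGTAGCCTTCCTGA

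The promoter windows were searched on both strands for the C/EBP-ATF response element, the sequence that ATF4 and its partners bind, with the letters TGATGNAA. RefSeq windows were found for 30 of the 32 genes, all but Gars1 and Rars1. The element was present in 7 of 17 cytosolic windows (Aars1, Cars1, Iars1, Mars1, Nars1, Tars1 and Yars1) and in 0 of 13 mitochondrial windows, against 2.98% of 12435 windows of named genes. Of the 7 genes with a match 6 had a negative difference, with a median of -0.27, and of the 10 cytosolic genes without one 5 had, with a median of 0.04. Across all genes above the floor 4458 of 8103 had a negative difference. The split was not tested and overlaps that by the complex. Of the complex members with a window, Iars1 and Mars1 had a match, while Eprs1, Kars1, Lars1 and Qars1 had none. A match describes the letters in the window and does not show binding. For 6 of the genes the stretch around the match is shown 5′ to 3′ on the strand of the gene, with the element in capitals on whichever strand it was found; that of Aars1 is not shown.
Cars1, chr1:208225334-208225363, minus strand: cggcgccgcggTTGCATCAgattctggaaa
Iars1, chr17:15193658-15193687, minus strand: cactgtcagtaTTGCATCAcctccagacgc
Mars1, chr7:65023752-65023781, minus strand: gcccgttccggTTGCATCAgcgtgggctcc
Nars1, chr18:60275778-60275807, minus strand: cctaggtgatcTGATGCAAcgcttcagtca
Tars1, chr2:62114811-62114840, minus strand: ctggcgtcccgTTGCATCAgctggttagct
Yars1, chr5:146820190-146820212, plus strand: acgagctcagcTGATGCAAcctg

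Yars1 and Iars1 are shown in full because they carried the element and stood at opposite ends, with differences of -0.85 and 0.38. In the Yars1 window the element began 38 bases after the annotated start, and in the Iars1 window 24 bases before it. The element is in capitals.
Yars1 promoter, chr5:146819913-146820212, plus strand: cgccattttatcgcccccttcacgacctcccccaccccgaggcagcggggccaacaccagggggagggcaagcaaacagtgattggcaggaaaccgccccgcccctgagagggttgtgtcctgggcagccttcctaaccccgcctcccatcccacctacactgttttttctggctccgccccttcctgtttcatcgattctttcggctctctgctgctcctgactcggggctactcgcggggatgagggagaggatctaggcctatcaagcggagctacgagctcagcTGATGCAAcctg
Iars1 promoter, chr17:15193603-15193902, minus strand: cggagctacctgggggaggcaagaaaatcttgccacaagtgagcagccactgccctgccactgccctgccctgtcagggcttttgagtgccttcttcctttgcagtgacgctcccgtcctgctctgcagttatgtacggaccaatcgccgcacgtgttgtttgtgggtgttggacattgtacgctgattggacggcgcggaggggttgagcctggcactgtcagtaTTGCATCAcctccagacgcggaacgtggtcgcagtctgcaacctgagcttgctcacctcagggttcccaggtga

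Of the other motifs searched, the palindromic cAMP response element TGACGTCA was in 0 of the 30 windows, against 2.56% of named genes. The E-box CACGTG, which Myc and other basic helix-loop-helix factors bind, was in 5 of 17 cytosolic windows and in 1 of 13 mitochondrial windows, against 7.94% of named genes. Because TET enzymes act at CpG sites, these were counted as well: synthetase windows held 10 to 41, with a median of 20, against a median of 16 for named genes. Their methylation was not measured.

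Genes that work with the synthetases were taken from lists by function, and their counts stand beside the 13.2% of all genes past 1.5-fold on the lower side and the 8.63% on the higher side. The scaffolds of the multi-synthetase complex differed by less than 1.5-fold: Aimp1 by -0.06, Aimp2 by 0.28 and Eef1e1 by -0.43. Of 4 genes that remove wrongly charged or blocked amino acids from tRNA, 1 was at least 1.5-fold higher and 0 lower; this was Prorsd1, with 5.97 log2 units in the siTet2/3+VC culture and 5.17 in the NC+VC culture, and with the floor raised by 1 log2 unit the count was 0. Mitochondria make glutaminyl-tRNA by amidating glutamyl-tRNA made by Ears2, and the amidase subunit genes Gatc and Qrsl1 had differences of -0.43 and -0.31. The formyltransferase gene Mtfmt, whose enzyme modifies the mitochondrial initiator tRNA, had -0.05, so that none of the 3 passed the limit. The list of cytosolic elongation factors had 0 of 7 genes past the limit in either direction, and the mitochondrial list 0 of 4. Their medians were -0.12 and -0.03. The cytosolic list also holds Eef2k, which encodes a kinase of elongation factor 2 and had a difference of 0.46. The largest difference was that of Eif5a (-0.53) in the cytosolic list and of Tsfm (0.40) in the mitochondrial list. Eef1a1, which delivers charged tRNA to the ribosome, stood at the upper end of the scale, where a difference cannot show.

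Genes that make and modify tRNA differed in both directions. In tRNA processing and export 2 of 21 were at least 1.5-fold lower and 1 higher, with a median of -0.17. The La protein gene Ssb, which binds new RNA polymerase III transcripts, read 12.95 log2 units in the siTet2/3+VC culture and 11.67 in the NC+VC culture, 2.44-fold higher. Tsen34, a subunit of the tRNA splicing endonuclease, was 2.25-fold lower and the export receptor gene Xpo5 1.61-fold lower, and with the stricter floor only Xpo5 was left of the pair. In tRNA modification 3 of 28 were lower and 3 higher, with a median of -0.10. Dus4l, which makes dihydrouridine, was 2.46-fold lower, Mettl6, a methyltransferase gene, 1.61-fold and the Elongator gene Elp5 1.53-fold, while the queuine transferase gene Qtrt1 was 1.79-fold higher, the deaminase subunit gene Adat2 1.78-fold and the pseudouridine synthase gene Pus1 1.57-fold. With the stricter floor 2 modification genes were lower and 0 higher, and after centring 2 were lower and 4 higher. RNA polymerase III and its factors had 1 of 19 lower and 2 higher, with a median of 0.17. Maf1, the repressor of this polymerase, was 1.64-fold lower, and the subunit genes Polr3k and Polr3gl were 1.54-fold and 1.52-fold higher. With the stricter floor 0 genes of that list were higher and its median was -0.04, so its direction is not firm.

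The list of amino acid synthesis and ATF4 response genes had a lower median than the synthetases, at -0.37. By their measured differences, 10 of its 30 genes lay past the 1.5-fold limit on the lower side and 3 on the higher side, against 13.2% and 8.63% of all genes. With values below the floor raised to it, 8 were at least 1.5-fold lower and 1 higher, against 11.8% and 6.96% of all genes. After centring 8 were lower and 3 higher, and with the stricter floor, which fewer of the 30 genes pass, 3 and 1. No share of all genes is given for those settings, so these counts cannot be set against one. Gpt2, an alanine aminotransferase gene, read 6.40 log2 units in the siTet2/3+VC culture and 7.35 in the NC+VC culture, 1.93-fold lower. Cebpb and Pycr3 were below the floor in the siTet2/3+VC culture and at least 1.23-fold and 1.37-fold lower. Cth, which makes cysteine, was 1.83-fold higher, and Vldlr and Atf5, below the floor in the NC+VC culture, were at least 1.46-fold and 1.24-fold higher. Named for their role, Atf4 itself read 15.24 in the siTet2/3+VC culture and 15.70 in the NC+VC culture, and the asparagine synthetase gene Asns had a difference of -0.41. Some genes of this list had been seen to be lower before the list was drawn up, so its count is not independent support.

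Among 11 eIF2 alpha kinases and amino acid sensors, 2 had measured differences past the limit on the lower side and 1 on the higher side, with a median of -0.24. With values raised to the floor 1 was lower and 1 higher, and with the stricter floor 0 and 1. Eif2ak4, which encodes the GCN2 kinase itself, was below the floor in the siTet2/3+VC culture (4.61, against 5.36 in the NC+VC culture) and at least 1.25-fold lower. Impact, which encodes an inhibitor of GCN2 activation, was 1.87-fold lower, and the sestrin gene Sesn3 was 2.81-fold higher. Of 8 genes for Myc, Max and related factors 3 were lower and 0 higher, also against 13.2% and 8.63% of all genes. These were Mxd1 (1.72-fold), Mxi1 (1.69-fold) and Mlx (1.62-fold). Myc itself had a difference of -0.28 and its partner gene Max one of -0.07, both within the limit.

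**Figure D4:**
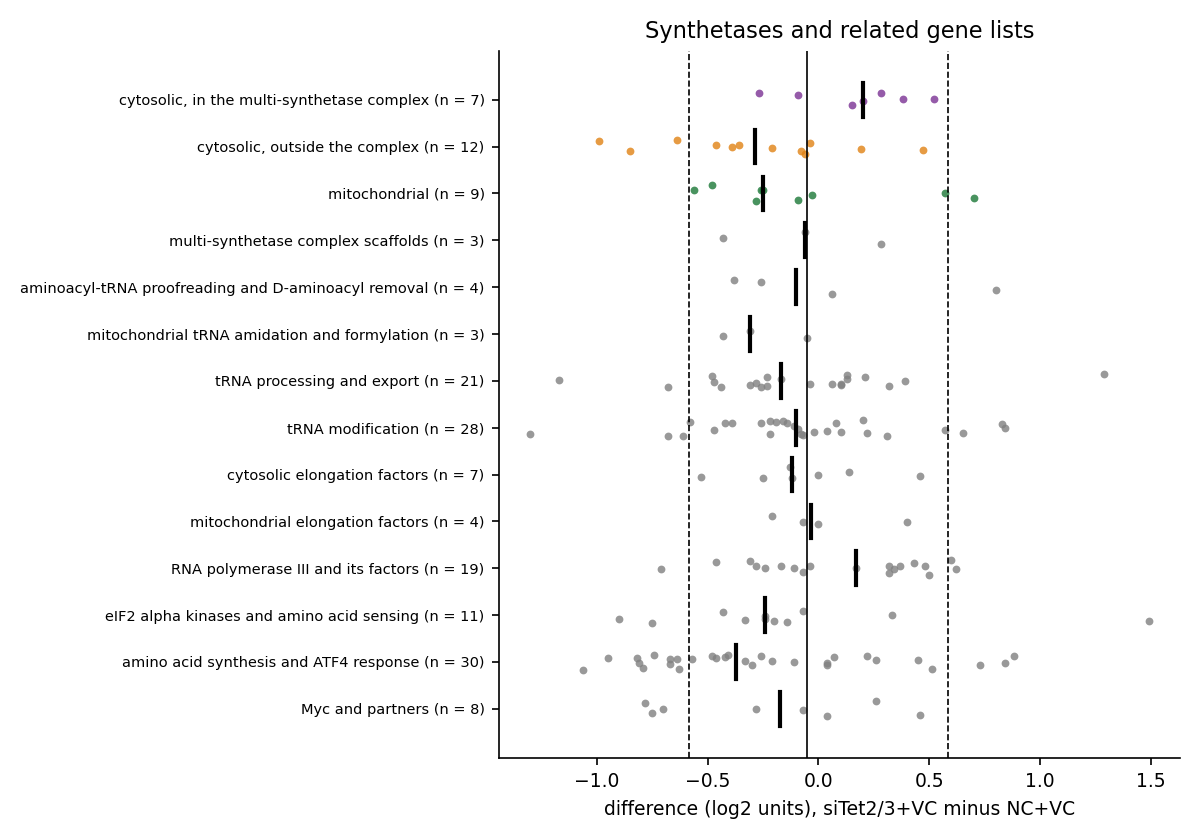
Difference (siTet2/3+VC minus NC+VC, log2 units) of each gene above the floor in the 3 groups of synthetases and in 11 related lists; points are genes and are spread vertically only to be seen. Thick bars are list medians, the thin line is the median of all genes and the dashed lines mark 1.5-fold; the ATF4 response list has its median at -0.37 and the complex members at 0.20.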

How the data were processed

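The table holds the authors' deposited log2 signals, 1 column per array, made with RMA and the Transcriptome Analysis Console per the submitters' processing notes, with no version, setting or genome build in the sources available. The columns have medians of 4.90 (siTet2/3+VC) and 4.85 (NC+VC), so a shift of total RNA cannot show. Groups follow the genotype label. The platform annotation named 15049 probe sets, averaged per gene. The floor is the 95th percentile, over chemoreceptor genes, of the brighter array's value. Counts take genes whose brighter value exceeds it and whose difference reaches 1.5-fold; with 1 value below the floor, folds are bounds against it. Any synthetase could be named; each list names up to 3 genes past the limit per direction, or the largest difference, and others by role. Promoters are RefSeq windows matched by gene identifier. Robust SD is the scaled median absolute deviation. Python 3.11.15, pandas 2.3.3 and limma 3.58.1 (loess span 0.3) were used. The procedure was also run on simulated data, with 2-fold and 4-fold changes put into genes well above the floor. The simulated noise was smaller than the spread of these arrays, so that run does not gauge the 1.5-fold calls made here. The members and lists were chosen with earlier results of these data known.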

Additional observations from a re-analysis of the deposited data

How the results depend on the processing

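No paired analysis was possible because each group had 1 array. Alternatives were: a floor from negative-control probe sets (8.31), a floor raised by 1 log2 unit or none at all, centring, removal of a loess trend on signal, the brightest probe set, a 2-fold limit, values raised to the floor, means in place of medians, and leaving out genes; those for the multi-synthetase complex were added after seeing the data. A median was taken as moved past 0.1 log2 units and a count past 1.5 times. At 2-fold, 0 synthetases were lower and 0 higher. The count of higher synthetases was 0 with the negative-control floor and 2 (Rars2 and Fars2) with centring or without the trend; that of lower ones was 2 to 3 under the other settings. The mitochondrial median was -0.09 with the negative-control floor, where 1 gene was left, -0.14 with values raised to the floor and -0.08 as a mean. The gap between the compartments was then 0.01, 0.07 and -0.04. The median within amino acids was -0.27 with the floor raised by 1 log2 unit and 0.10 without phenylalanine. With the negative-control floor the threonine pair alone was left, at -0.27, so that value is not a median over amino acids. The complex minus other cytosolic gap was 0.38 without the gene of largest difference in each group and otherwise 0.45 to 0.54. All 19 cytosolic genes passed every floor with 1 probe set each, and centring cancels in a gap. The settings of floor, raised values, probe set and centring could therefore only return 0.48. Of 158 comparisons of single synthetase differences 0 moved by 0.1, and 3 changed sign: Gars1 to 0.01 with centring and Pars2 to 0.02 with centring and without the trend. Most of these comparisons could not move: a floor leaves a single difference as it is, and each synthetase had 1 probe set. Centring takes the same -0.05 from every gene, which is under 0.1. Only removal of the trend could have moved a difference that far, and the largest move was 0.08. Of 195 list values 21 moved. Signals near the floor limit 12 of the 13 mitochondrial genes, which lay below 8.31 in both cultures.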
